A study of Homo sapiens with 6 samples.

Results

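RNA-seq of Hep3B cells was examined for the cyclins, the cyclin-dependent kinases (CDKs) and the small proteins, phosphatases and kinases that act on them. The members were taken by gene symbol. They are the cyclins of types A, B, D, E, G, I, L and T with a numbered symbol and CCNY, the numbered CDKs, the CDK inhibitors of the CDKN1, CDKN2 and CDKN3 symbols except CDKN1C, the CKS subunits, the CDC25 phosphatases, WEE1 and PKMYT1. The rule found 51 of the 23228 genes in the deposited tables, and 49 of these were among the 14537 genes that passed the filter on low counts. CCNA1 and CDK15 did not pass it.

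Most CDKs are active only when bound to a cyclin, and the levels of many cyclins rise and fall through the cell cycle. D-type cyclins with CDK4 and CDK6 and E-type cyclins with CDK2 drive the entry into S phase by phosphorylating the RB protein, which frees E2F transcription factors. A-type and B-type cyclins with CDK1 and CDK2 drive S phase and mitosis. The INK4 inhibitors bind CDK4 and CDK6, the CIP/KIP inhibitors bind cyclin-CDK complexes, WEE1 and PKMYT1 add inhibitory phosphates to CDK1, and CDC25 phosphatases remove them. Other cyclin-CDK pairs act on RNA polymerase II and on transcription rather than on the cell cycle.

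Hep3B is an established human hepatocellular carcinoma line. The 3 control libraries came from cells with lentiviral non-targeting shRNA. The 3 libraries labelled PELP1-KD came from cells with lentiviral shRNA against PELP1, a scaffold protein of nuclear receptor signaling and ribosome biogenesis. Both kinds of cells were cultured in RPMI, and for the PELP1-KD cells the labels describe puromycin selection and pooled clones. The library titles name the first PELP1 shRNA, while the protocol in the labels names both hairpins of the study. Nothing in the labels says that the 3 libraries of a group came from separate cultures, so p values measure only the spread between these libraries. The labels conflict on the extraction and library kits and on single or paired reads.

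Gene reads per library ranged from 26758363 to 34456542, and 0.328% to 0.334% of them fell on the 51 members. PELP1, the targeted gene, had 4893, 4914 and 5102 normalized reads in control and 4421, 4825 and 4840.2 in the knockdown-labelled libraries. Normalized reads are estimated counts scaled to the mean TMM library size. Its mean was 94.5% of the control level (4969.6 ± 115 normalized reads in control and 4695 ± 238 in the knockdown-labelled libraries, SD, n = 3 each; log2 fold change −0.08, adjusted p = 0.101 from edgeR, and 0.0106 with the replicate number as a block). Each PELP1 value of the knockdown-labelled libraries lay below every control value, where 29.3% of all tested genes did so. Because PELP1 RNA still lay so close to control, the 3 libraries labelled PELP1-KD are called knockdown-labelled throughout. The study reported lower PELP1 protein in Hep3B cells with PELP1 shRNA by Western blot, and in xenografts of such cells by staining. RNA-seq does not measure protein. All 13 hepatocyte lineage markers were detected, and their summed level was between 14239 and 14333 RPKM (reads scaled to exon length and library size) in control and between 14036 and 14232 in the knockdown-labelled libraries. Of them, 5 were called higher and 7 lower (92.3% called, against 53.6% of all tested genes, with 26.8% in each direction). Within the sum, ALB was at 65.4% and AFP at 154% of the control level. The 9 fibroblast markers summed to between 11.1 and 12.3 RPKM in control and between 17.8 and 18.3 in the other group, with THY1 at 0. Of the 6 that were tested, 3 were called higher and 2 lower (83.3% called). The 6 endothelial markers summed to between 0.476 and 0.510 RPKM in control and between 0.434 and 0.479 in the other group, with CDH5, KDR and TEK at 0. The 7 leukocyte markers summed to between 25.2 and 28.3 RPKM in control and between 33.5 and 36.2 in the other group, most of it CD68, which was called higher (log2 fold change 0.48), while CD14 was called lower (−0.98) and PTPRC had 0 to 5 reads a library. Their part in the results below was not tested.

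More cyclin and CDK genes were lower than higher in the knockdown-labelled libraries. At an adjusted p below 0.05, edgeR called 24 of the 49 tested members lower, where 26.8% of all tested genes were lower, and 10 members higher, where again 26.8% of all genes were higher. The other 15 members were not called. The median log2 fold change of the members was −0.13, against 0.0044 for all tested genes, but the changes were small, with a median size of 0.17 against 0.20 for all genes. Only CDKN2B rose at least 2-fold, and CCND2 and CDK20 fell at least 2-fold, where 2.85% of all tested genes rose and 4.79% fell by as much. In either direction 3 of 49 members changed at least 2-fold, where 7.65% of all genes did. The 3 values of one group lay wholly above the 3 of the other for 13 members that were higher and 24 that were lower, where 29.5% and 29.3% of all tested genes did so. In RNA from whole cultures, a different share of cells in a phase of the cycle and a different RNA level per cell cannot be told apart.

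**Figure D1:**
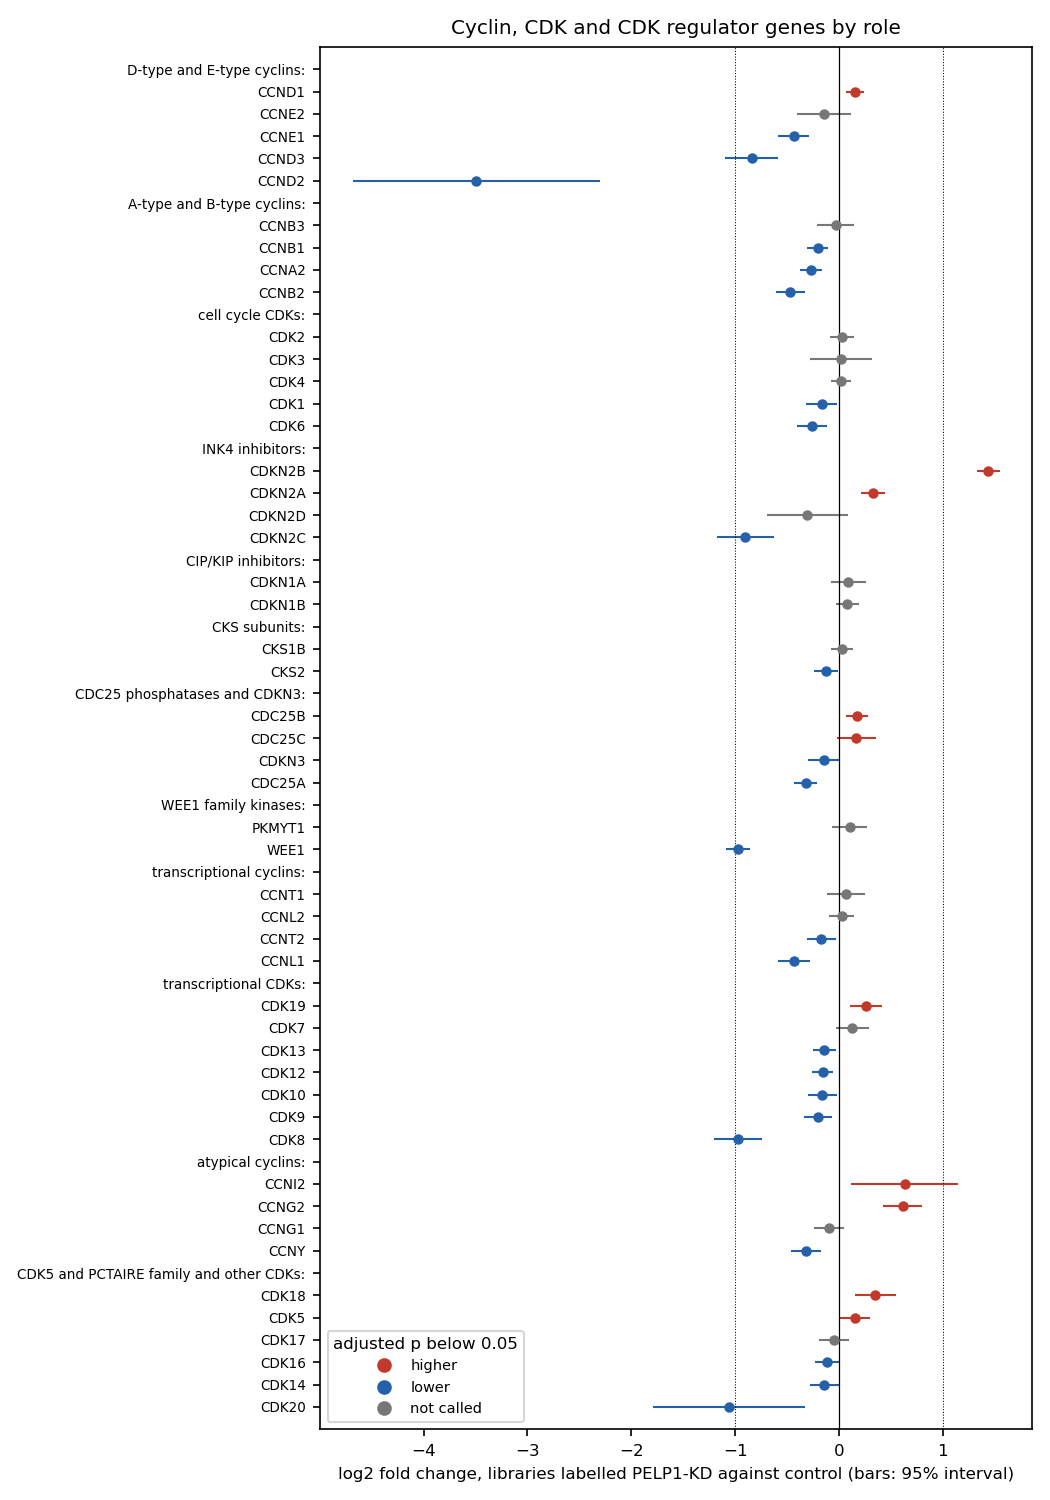
Log2 fold change of the 49 tested members, grouped by role, in the knockdown-labelled libraries against control. Points are edgeR estimates, bars are 95% intervals, colors give the call at an adjusted p below 0.05, and dotted lines mark a 2-fold change. CDKN2B lies farthest to the right at 1.44, and CCND2, CDK20, CDK8, WEE1, CDKN2C and CCND3 lie farthest to the left.

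The members spanned a wide range of levels. Per length, CDK4 was the most abundant in control at 241 ± 4.42 RPKM (SD, n = 3), followed by CKS1B at 147 ± 3.16, CKS2 at 117 ± 1.37, CCND1 at 81.9 ± 1.35 and CCNB1 at 78.0 ± 0.870. CDK4, CKS1B, CKS2 and CCND1 held ranks 1 to 4 in both groups. The largest shifts of rank were those of CDKN2B, which went from rank 27 of 51 to rank 13, of CDK8, which went from 29 to 41, and of WEE1, which went from 16 to 25. The lowest tested members were CCND2, CDK20 and CCNI2, each with fewer than 100 normalized reads in every library.

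The INK4 inhibitors moved in opposite directions. CDKN2B, which encodes the CDK4 and CDK6 inhibitor p15, occupies bases 22002902 to 22009312 of chromosome 9 (hg19, minus strand). It had 1623, 1562 and 1599 normalized reads in control and 4277, 4349 and 4319.8 in the knockdown-labelled libraries. All 3 values of the second group were thus far above the first. Its level was 2.71-fold that of control, with means of 1595 ± 30.8 normalized reads in control and 4315 ± 35.9 in the knockdown-labelled libraries (SD, n = 3 each; log2 fold change 1.44, standard error 0.04, 95% interval 1.32 to 1.55, adjusted p = 2.29e-16).

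CDKN2A, the neighboring gene that encodes p16 and, from another first exon, p14ARF, had 3626, 3721 and 3697 normalized reads in control and 4390.0, 4561 and 4882 in the knockdown-labelled libraries. The groups did not overlap, and the rise was smaller (1.25-fold, log2 fold change 0.33, standard error 0.04, adjusted p = 2.07e-06). The tables give CDKN2A as a single gene, so p16 and p14ARF transcripts were not separated. The antisense RNA gene CDKN2B-AS1, looked at after the values had been seen, rose as well, from 61.0 to 110.2 normalized reads on average (log2 fold change 0.86, adjusted p = 8.73e-05). It shares no exon base with either gene, and reads were counted by strand. The nearest other tested gene, MTAP, had a log2 fold change of −0.11 (adjusted p = 0.0568).

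CDKN2C, which encodes p18, moved the other way. It had 421, 511 and 404 normalized reads in control and 214, 264 and 239 in the knockdown-labelled libraries, where each value lay below every control value, at 53.6% of control (log2 fold change −0.90, standard error 0.10, adjusted p = 2.29e-07). CDKN2D, which encodes p19, was the rarest of the family. Its values of 116, 128 and 111 in control and 101, 79.3 and 106 in the other group did not overlap between the groups, but it was not called (log2 fold change −0.30, 95% interval −0.69 to 0.09, adjusted p = 0.0774), except without replicate 3 of PELP1-KD (log2 fold change −0.38, adjusted p = 0.0416).

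The make-up of the INK4 family shifted accordingly. Per length, CDKN2B made up 16.4% ± 0.577 of the INK4 RNA in control and 31.3% ± 1.06 in the knockdown-labelled libraries (SD, n = 3 each). CDKN2A remained the most abundant at 72.8% ± 0.645 and 64.0% ± 1.05, while CDKN2C went from 7.37% ± 0.832 to 2.78% ± 0.268. The summed INK4 level was 77.5 ± 1.25 RPKM in control and 110.3 ± 4.17 RPKM in the other group (SD, n = 3 each). For each of the 4 shares, the groups did not overlap (two-sided and exact permutation test over libraries, p = 0.1, which is the lowest value possible with 3 libraries a group, and 0.124 after adjustment over the 21 shares of 7 families). The same held for each share among the D-type cyclins, CDK4 with CDK6, the CDC25 phosphatases and CDK8 with CDK19.

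**Figure D2:**
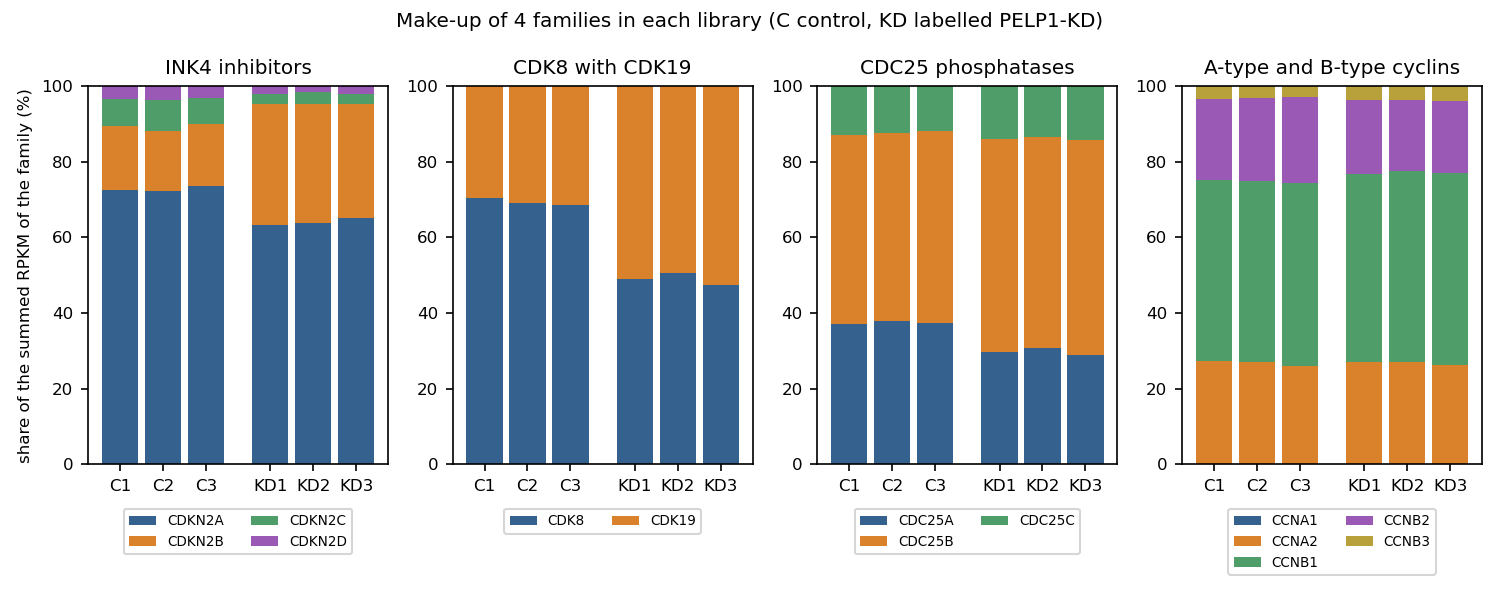
Share of each member in the summed RPKM of its family in each of the 6 libraries, for 4 families. Each bar is a library. The CDKN2B part of the INK4 bar is taller in the 3 knockdown-labelled libraries (31.3% on average) than in control (16.4%). CDK8 makes up less of its pair with CDK19 (48.9% against 69.3%), whose sum was lower than in control.

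The CIP/KIP inhibitors stayed near control. CDKN1A, which encodes p21, had 639, 632 and 663 normalized reads in control and 679.8, 669 and 709 in the knockdown-labelled libraries. The groups did not overlap, but the gene was not called (log2 fold change 0.09, 95% interval −0.08 to 0.26, adjusted p = 0.219). CDKN1B, which encodes p27, had 2705, 2667 and 2704 in control and 2821, 2879.8 and 2838 in the other group, also without overlap, and was not called (log2 fold change 0.08, 95% interval −0.03 to 0.19, adjusted p = 0.0916). With the replicate number as a block, CDKN1B was called higher (adjusted p = 0.0283).

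The cyclins of G1 and of the entry into S phase moved apart. CCND1, by far the most abundant D-type cyclin, had 10851, 11216 and 11030.2 normalized reads in control and 12360.1, 12282 and 12197 in the knockdown-labelled libraries. Its rise was small but without overlap (1.11-fold, log2 fold change 0.15, standard error 0.03, adjusted p = 0.000326). CCND3 had 426, 391 and 416 normalized reads in control and 213, 210.0 and 265 in the other group, with no overlap. It fell to 55.8% of control (log2 fold change −0.84, standard error 0.09, adjusted p = 2.24e-07).

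CCND2 was rare, with 32, 28 and 45 reads in control and 3, 1 and 4 in the knockdown-labelled libraries. The control level was 11.7 times the other by read totals (95% exact binomial interval 5.72 to 27.8, which covers counting error only), and the gene was called lower (adjusted p = 1.08e-06). CCND1 thus made up 93.6% ± 0.367 of the D-type RNA per length in control and 96.8% ± 0.439 in the knockdown-labelled libraries, with CCND3 at 6.18% and 3.20% (SD, n = 3 each). The sum of the D-type cyclins was 87.4 ± 1.12 RPKM in control and 94.1 ± 0.336 RPKM in the other group.

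CCNE1, an activator of CDK2, fell from 1083, 1064 and 1126 normalized reads in control to 776, 820.3 and 825. The groups did not overlap, at 74.0% of control (log2 fold change −0.43, standard error 0.05, adjusted p = 1.22e-06). CCNE1 is among the genes for which the study lists RT-qPCR primers. The values of its paralog CCNE2, 366, 347 and 327 in control and 359, 308 and 273 in the other group, overlapped, and it was not called (log2 fold change −0.15, 95% interval −0.41 to 0.11, adjusted p = 0.201). Without replicate 1 of PELP1-KD, CCNE2 was called lower (log2 fold change −0.26, adjusted p = 0.0267).

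The kinases of these cyclins moved less. CDK4 had 10693, 11048 and 11033 normalized reads in control and 10639, 11136 and 11442 in the knockdown-labelled libraries, with overlap and no call (log2 fold change 0.02, 95% interval −0.08 to 0.11). CDK2 had 3144, 3372 and 3162 in control and 3385, 3318 and 3179 in the other group, also overlapping (log2 fold change 0.03, 95% interval −0.09 to 0.15). Both intervals exclude a change of the size seen in CCND3. CDK6, which binds the same D-type cyclins as CDK4, fell from 2323, 2331 and 2104 normalized reads in control to 2006, 1890.3 and 1756 in the knockdown-labelled libraries, without overlap (log2 fold change −0.26, standard error 0.05, adjusted p = 0.000377). CDK4 made up 97.5% of the CDK4 and CDK6 RNA per length in control. CDK3 was not called (log2 fold change 0.02), and all of its 1570 exon bases also belong to the readthrough gene C17orf106-CDK3, so its reads were shared out between both and its value is uncertain.

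**Figure D3:**
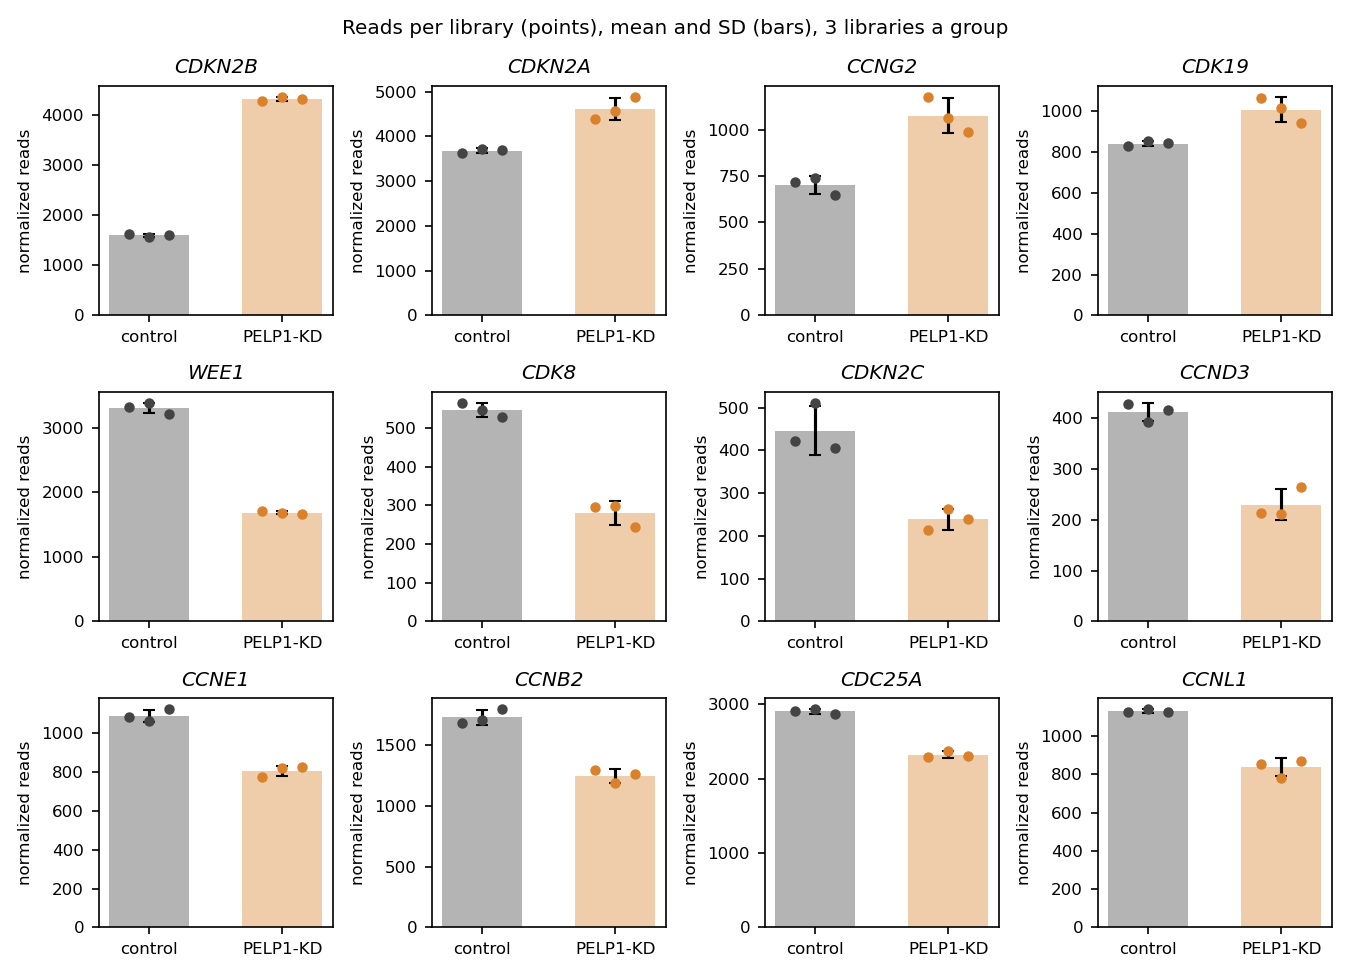
Normalized reads of 12 members in each library. Points are libraries in the order of their replicate numbers, bars are group means from 0, and error bars are the SD (n = 3). The 12 were picked from called members whose groups do not overlap, so no panel shows overlap. Over all tested genes, 58.8% had groups without overlap. CDKN2B, CDKN2A, CCNG2 and CDK19 are higher in the knockdown-labelled libraries, and the others lower.

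Of the 4 tested A-type and B-type cyclins, 3 were called lower and none higher, where 26.8% of all tested genes were lower. CCNB2 had 1685, 1707 and 1799 normalized reads in control and 1293, 1186 and 1264 in the knockdown-labelled libraries. It showed the largest fall of this group, to 72.1% of control without overlap (log2 fold change −0.47, standard error 0.05, adjusted p = 1.43e-07). CCNA2, which serves S phase and early mitosis, went from 3891, 3843 and 3735 normalized reads to 3257, 3111 and 3146 (log2 fold change −0.27, adjusted p = 8.61e-06). CCNB1, the main mitotic cyclin, went from 5112, 5082 and 5192 to 4480.1, 4342 and 4514 (log2 fold change −0.21, adjusted p = 8.31e-05). In each of these, every value of the knockdown-labelled libraries lay below every control value.

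CCNB3, a cyclin known from meiosis, was not called (log2 fold change −0.03, 95% interval −0.21 to 0.15). CCNA1, known from male germ cells, had 3, 0 and 5 reads in control and 0 in each of the other libraries, too few for a fold change. The summed level of the A-type and B-type cyclins was 162 ± 0.993 RPKM in control and 135 ± 3.33 RPKM in the knockdown-labelled libraries (SD, n = 3 each), which is 82.8% of control.

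CDK1, their kinase, had 3098, 3075 and 2770.2 normalized reads in control and 2786, 2727 and 2450.1 in the other group. It was called lower (log2 fold change −0.17, standard error 0.05, adjusted p = 0.0106) although the groups overlapped. The third library of each group was the lowest of its group, and CDK1 was lower in each of the 3 pairs of same-numbered libraries (adjusted p = 2.49e-05 with the replicate number as a block). Without the block, the call was lost without replicate 1 of control (log2 fold change −0.14, adjusted p = 0.0671) or replicate 2 of control (log2 fold change −0.15, adjusted p = 0.0617). Of the CKS subunits, which hold CDK complexes to their phosphorylated substrates, CKS2 went from 2227, 2278 and 2243 normalized reads to 2064, 2062 and 2059.5 without overlap (log2 fold change −0.13, adjusted p = 0.0137). The call was lost without replicate 2 of control (log2 fold change −0.12, adjusted p = 0.0628). CKS1B was not called, with 4216, 4381 and 4229.7 in control and 4299, 4360.5 and 4414 in the other group (log2 fold change 0.03, 95% interval −0.08 to 0.13).

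Promoters of cell cycle genes often hold CCAAT boxes, which NF-Y binds, and a CHR element, which is bound by repressor and activator complexes of G2 and M phase genes. RefSeq promoters of build GRCh38.p14, from 250 bases before to 50 after the start, were at hand for 45 of the 51 members and were searched on both strands for CCAAT, for the CHR letters TTTGAA and for the E2F letters TTTGGCGC or TTTCGCGC. No promoter was at hand for CCND1, CCND2, CCNE2, CDK2, PKMYT1 and WEE1. The letters searched do not overlap each other in the sequences shown. The 150 bases before the start are given for mitotic genes that were lower (CCNB2, CCNB1, CKS2), for CKS1B, which was not called, for CDC25A, which was lower and is one of the 3 members with E2F letters, and for CDKN2B, which rose most. Sequences run 5′ to 3′ on the strand of the gene, and capitals mark the letters searched in either orientation.
CCNB2 (chr15:59104996-59105145, plus strand): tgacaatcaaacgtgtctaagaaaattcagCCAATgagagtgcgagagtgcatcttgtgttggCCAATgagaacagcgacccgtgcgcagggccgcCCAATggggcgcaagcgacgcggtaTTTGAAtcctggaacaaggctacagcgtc
CCNB1 (chr5:69167000-69167149, plus strand): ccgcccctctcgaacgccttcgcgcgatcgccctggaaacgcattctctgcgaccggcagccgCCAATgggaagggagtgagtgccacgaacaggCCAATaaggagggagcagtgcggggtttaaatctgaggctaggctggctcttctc
CKS2 (chr9:89311045-89311194, plus strand): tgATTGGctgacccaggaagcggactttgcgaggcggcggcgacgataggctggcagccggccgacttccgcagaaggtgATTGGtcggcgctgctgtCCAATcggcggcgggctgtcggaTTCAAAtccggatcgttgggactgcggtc
CKS1B (chr1:154974531-154974680, plus strand): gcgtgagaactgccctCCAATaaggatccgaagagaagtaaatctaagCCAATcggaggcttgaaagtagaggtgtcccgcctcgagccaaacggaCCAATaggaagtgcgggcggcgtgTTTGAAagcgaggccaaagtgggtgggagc
CDC25A (chr3:48188418-48188567, minus strand): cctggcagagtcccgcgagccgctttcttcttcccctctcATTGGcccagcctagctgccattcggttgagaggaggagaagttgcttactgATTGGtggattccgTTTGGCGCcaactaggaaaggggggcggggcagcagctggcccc
CDKN2B (chr9:22009306-22009455, minus strand): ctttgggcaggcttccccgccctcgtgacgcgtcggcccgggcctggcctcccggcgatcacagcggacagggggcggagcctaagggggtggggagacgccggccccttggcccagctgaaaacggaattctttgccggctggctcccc

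CCNB2, CKS2 and CKS1B each showed CCAAT boxes followed by a CHR close to the start, at positions −29, −29 and −30 from the start. Of these, CCNB2 and CKS2 were lower and CKS1B was not called. CCNB1 held CCAAT boxes and no TTTGAA, and CDKN2B held none of the letters. Forms of the CHR with other letters were not searched, so this does not show whether CCNB1 has a CHR. Over the members, CCAAT occurred in 9 of 22 that were lower, 2 of 9 that were higher 6 of 12 that were not called and 1 of 2 that were not tested, and in 34.6% of 34796 distinct promoters. TTTGAA occurred in 4 that were lower, 1 that was higher and 1 that was not called, and in 15.2% of all promoters. The E2F letters occurred in 3 members, CDK1, CDC25A and CDK10, all lower, and in 1.14% of all promoters. Of the 45 members searched, 22 were lower. The CDK1 match lay after the start, at position 20. A match is a description of the sequence and not evidence of binding.

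WEE1, the kinase that holds CDK1 and CDK2 inactive by phosphorylating a tyrosine, fell with the smallest adjusted p of the members that were lower. It occupies bases 9595228 to 9611313 of chromosome 11 (hg19, plus strand). It had 3320.3, 3380.4 and 3221 normalized reads in control and 1709.7, 1688 and 1668 in the knockdown-labelled libraries, tight values with no overlap. Its level was 51.1% of control (log2 fold change −0.97, standard error 0.04, 95% interval −1.08 to −0.85, adjusted p = 1.57e-13). PKMYT1, the related membrane-bound kinase, was not called, with 1260.5, 1318 and 1425 normalized reads in control and 1307, 1427 and 1561 in the other group (log2 fold change 0.10, adjusted p = 0.173), but was called higher with the replicate number as a block (adjusted p = 0.0284) and without replicate 1 of PELP1-KD (log2 fold change 0.17, adjusted p = 0.0258). The summed level of both kinases was between 44.3 and 45.9 RPKM in control and between 32.3 and 35.6 RPKM in the other group.

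The CDC25 phosphatases, which oppose WEE1, moved in opposite directions. CDC25A, which acts at the entry into S phase and in mitosis, fell from 2912, 2936 and 2869 normalized reads in control to 2287, 2373 and 2312, without overlap (log2 fold change −0.32, standard error 0.04, adjusted p = 1.2e-06). CDC25B, which starts the activation of CDK1 before mitosis, rose from 3901, 3831 and 3884 to 4317, 4289 and 4525, also without overlap (log2 fold change 0.18, adjusted p = 0.000604). CDC25C, which also acts on CDK1, had 586, 549 and 522 in control and 612, 594 and 651 in the other group and was called higher close to the threshold (log2 fold change 0.17, adjusted p = 0.0469), and this call was lost with DESeq2 (adjusted p = 0.125), in edgeR with DESeq2 size factors (0.0509), upper-quartile scaling (0.0522) or at least 10 reads in every library (0.054), and when any library except replicate 1 of control was omitted (adjusted p between 0.0507 and 0.155). Their sum was 66.8 ± 0.751 RPKM in control and 67.2 ± 1.44 RPKM in the knockdown-labelled libraries (SD, n = 3 each). The share of CDC25A went from 37.4% ± 0.426 to 29.7% ± 0.912, and that of CDC25B from 50.2% ± 0.581 to 56.4% ± 0.516. CDKN3, a phosphatase that removes the activating phosphate of CDKs, had 1102, 1135 and 1090.3 in control and 1003, 1065 and 943 in the other group and was called lower (log2 fold change −0.15, adjusted p = 0.0314), but not with DESeq2 (adjusted p = 0.0631) and in only 1 of the 6 fits with a library omitted, that without replicate 2 of PELP1-KD (adjusted p between 0.0515 and 0.12 in the others).

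Among the transcriptional CDKs, 5 of 7 were called lower and CDK19 higher, where 26.8% of all tested genes were called in each direction. CDK8 and CDK19 are alternative kinases of the Mediator complex, and they moved in opposite directions. CDK8 had 564, 547 and 528 normalized reads in control and 295, 299 and 244 in the knockdown-labelled libraries, at 51.1% of control (log2 fold change −0.97, standard error 0.08, adjusted p = 5.83e-09). CDK19 had 828, 852 and 843 in control and 1065, 1016 and 942 in the other group, which is 1.20-fold (log2 fold change 0.26, standard error 0.06, adjusted p = 0.000717). Neither gene overlapped between the groups. Per length, CDK8 made up 69.3% ± 0.923 of the RNA of the pair in control and 48.9% ± 1.59 in the knockdown-labelled libraries (SD, n = 3 each), and the sum of both was 72.2% of control.

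CDK9, CDK12 and CDK13, which phosphorylate the tail of RNA polymerase II, fell by small amounts without overlap. CDK9, which as part of P-TEFb releases paused polymerase, had 1545 ± 16.1 normalized reads in control and 1343 ± 50.3 in the knockdown-labelled libraries (SD, n = 3 each; log2 fold change −0.20, adjusted p = 0.00132). CDK12 and CDK13 had log2 fold changes of −0.16 (adjusted p = 0.00101) and −0.14 (adjusted p = 0.00574), and CDK10, a partner of cyclin M, of −0.16 (adjusted p = 0.0119). The call of CDK10 was lost without replicate 3 of control (log2 fold change −0.14, adjusted p = 0.0531) or replicate 1 of PELP1-KD (log2 fold change −0.13, adjusted p = 0.0554). CDK7, the CDK-activating kinase and a part of TFIIH, did not overlap and was not called (log2 fold change 0.13, adjusted p = 0.0655), but was called higher with the replicate number as a block (adjusted p = 0.0272) and without replicate 3 of PELP1-KD (log2 fold change 0.17, adjusted p = 0.0167).

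Of the cyclins of these kinases, CCNL1, a cyclin linked to RNA splicing, fell most, from 1125, 1142 and 1126 normalized reads in control to 854, 783 and 872 (log2 fold change −0.43, standard error 0.05, adjusted p = 1.52e-06). The groups did not overlap. Its paralog CCNL2 was not called (log2 fold change 0.02, 95% interval −0.09 to 0.14). CCNT2, a partner of CDK9, was called lower (log2 fold change −0.17, adjusted p = 0.0074), a call lost without replicate 2 of control (log2 fold change −0.14, adjusted p = 0.0632), and CCNT1 was not called (log2 fold change 0.07, 95% interval −0.11 to 0.25).

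Of the atypical cyclins, CCNG2, which is known from cells that leave the cycle, had 719, 738 and 649 normalized reads in control and 1175, 1059 and 987 in the knockdown-labelled libraries. This was the largest rise after CDKN2B among members with at least 100 normalized reads (1.53-fold without overlap, log2 fold change 0.61, standard error 0.07, adjusted p = 2.58e-07). CCNG1, the paralog of CCNG2, was not called (log2 fold change −0.10, adjusted p = 0.121), but was called lower with the replicate number as a block (adjusted p = 0.00548) and without replicate 3 of control (log2 fold change −0.14, adjusted p = 0.0362). CCNY, a membrane-bound cyclin that activates CDK14 and CDK16, fell from 1191 ± 25.4 to 954 ± 35.0 normalized reads (log2 fold change −0.32, adjusted p = 2.97e-05). CCNI2 was rare and higher, at 52.1 ± 3.32 normalized reads in control and 81.2 ± 18.0 in the knockdown-labelled libraries (SD, n = 3 each; log2 fold change 0.63, standard error 0.19, adjusted p = 0.00744).

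The partners of CCNY, CDK14 and CDK16, were called lower with log2 fold changes of −0.14 (adjusted p = 0.0259) and −0.11 (adjusted p = 0.0393). The call of CDK14 was lost without replicate 2 of control (adjusted p = 0.123), without replicate 1 of PELP1-KD (0.0675) and with DESeq2 (0.0553). That of CDK16 was lost without replicate 3 of control (log2 fold change −0.07, adjusted p = 0.208), replicate 1 of PELP1-KD (0.0928) or replicate 2 of PELP1-KD (0.185). CDK18, of the same PCTAIRE family as CDK16, rose from 519.8, 505 and 498 normalized reads to 593, 663 and 688 without overlap (log2 fold change 0.35, adjusted p = 0.000276), and CDK17 was not called (log2 fold change −0.05, 95% interval −0.19 to 0.10). CDK5, best known from neurons, was called higher (log2 fold change 0.15, adjusted p = 0.0224), but not with DESeq2 (adjusted p = 0.0699) and not without replicate 2 of control (adjusted p = 0.0719), replicate 3 of control (0.052) or replicate 2 of PELP1-KD (0.0888). CDK20 had 59, 39 and 39 reads in control and 16, 23 and 19 in the knockdown-labelled libraries, a ratio of 2.10 by read totals (95% exact binomial interval 1.54 to 2.91, counting error only; adjusted p = 0.0021). CDK15 had 0 reads in each of the 6 libraries, which allows up to 3 reads in each.

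In the regions of some members, many genes were called lower. The regions named were chosen after their values had been seen. Of the 10 tested genes that reach within 1 Mb of CDK8 on chromosome 13 (26828756 to 26978569 of hg19), 8 were called lower and none higher, with a median log2 fold change of −0.72. RPL21 and its copy RPL21P28 share reads and count as separate genes here. Of the 31 around CCND3 on chromosome 6 (41902671 to 42016610), 21 were lower and 2 higher, with a median of −0.36. Of the 20 around CDKN1A, also on chromosome 6, 12 were lower and 4 higher, with a median of −0.14. CDKN1A itself was not called (log2 fold change 0.09). Over all tested genes, 26.8% were lower.

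Around WEE1, 11 of 22 genes were lower with a median of −0.17, against −0.97 for WEE1 itself, and around CKS2, 4 of 6 were lower with a median of −0.50. Other regions held more genes that were higher, with 24 of 48 around CDK2, 21 of 43 around CDC25A and 7 of 11 around CCNG2, where 26.8% of all tested genes were higher. Around CDKN2B the 5 tested neighbors that are not members had a median of −0.11, and around CDKN2C 3 of 8 were higher and none lower. What the neighbors share with the members was not tested.

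**Figure D4:**
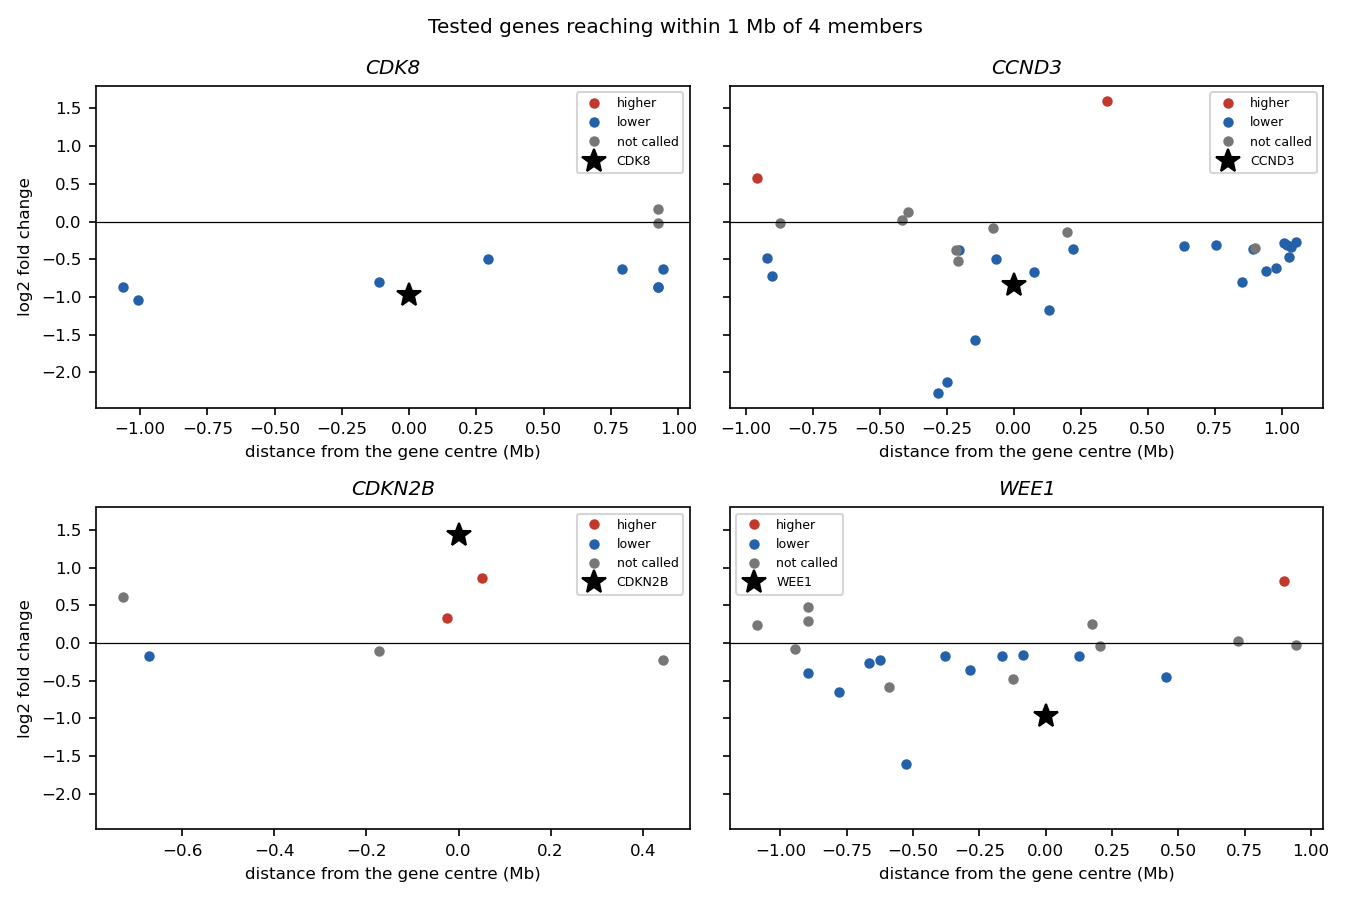
Log2 fold change of the tested genes that reach within 1 Mb of CDK8, CCND3, CDKN2B and WEE1, by distance between gene centers. The star is the member, and colors give the call of its neighbors. Around CDK8 the called genes are all lower (8 of 10), while CDKN2B stands above its neighbors, of which CDKN2B-AS1 is the highest at 0.86.

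Genes that work with the cyclins and CDKs were read from lists beside them, and their counts stand against 53.6% of all tested genes called, with 26.8% in each direction. Of 11 checkpoint and mitotic genes, most of them kinases, 7 were called lower and none higher, with a median log2 fold change of −0.19. PLK1, which activates CDC25 and marks WEE1 for breakdown, fell by 0.45 on the log2 scale (adjusted p = 1.76e-08), and AURKB and BUB1B had log2 fold changes of −0.39 and −0.22. Of 20 RB, E2F and DREAM genes, 7 were lower and 2 higher, with a median of −0.091, so that 45.0% were called, a smaller share than among all genes. TFDP1, the dimer partner of E2F proteins, had a log2 fold change of −0.59 (adjusted p = 2.7e-10), MYBL2 of −0.27 and E2F5 of −0.50. RBL2, which encodes the pocket protein p130, rose by 0.21 on the log2 scale (adjusted p = 0.00262). RB1 was called higher close to the threshold (log2 fold change 0.13, adjusted p = 0.0487), and its groups overlapped. DESeq2 called 1 gene of this list higher rather than 2.

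Of 27 genes of the APC/C and SCF ubiquitin ligases and their regulators, which destroy cyclins and CDK inhibitors, 9 were lower and 4 higher, and the 48.1% called was likewise below the share of all genes (53.6%). With DESeq2, 1 of the 27 was called higher rather than 4. FBXO5, an inhibitor of the APC/C, fell on average from 1166 ± 19.5 to 799.9 ± 24.8 in normalized reads (SD over 3 libraries a group; log2 fold change −0.55, adjusted p = 3.56e-08), and FZR1, an activator of the APC/C, had a log2 fold change of −0.29 (adjusted p = 0.000109). Of 15 partners of P-TEFb and the Mediator kinase module, 6 were higher and 5 lower (73.3% called, against 53.6% of all genes). MLLT3 (0.74, adjusted p = 7.14e-10) rose and MLLT1 (−0.43, adjusted p = 2.81e-07) fell, and both encode subunits of elongation complexes that hold P-TEFb. MED12 (0.39, adjusted p = 8.47e-07), which activates CDK8 and CDK19, rose, and HEXIM1 (−0.36, adjusted p = 6.24e-07), an inhibitor of P-TEFb, fell. Of 15 tested other cyclins and CDK partners, 5 were higher and 3 lower, a share of 53.3% called that is close to that of all genes, with CABLES1 highest (0.57, adjusted p = 3.26e-09) and CCNF with the smallest p among those that fell (−0.29, adjusted p = 5.28e-05).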

How the data were processed

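RNA-seq of 3 control and 3 PELP1-KD libraries of Hep3B cells was used, grouped by their labels. The deposited tables hold estimated counts per gene of hg19. Per the file headers, the authors counted exon reads by strand with featureCounts v1.5.0-p1, with a minimum mapping quality of 2, and shared reads of several places or genes out as fractions. The submitters' processing notes name HISAT2, whereas the methods of the study name TopHat2 and HTSeq. Genes with copies or overlaps are therefore less certain.

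Estimated counts were rounded, filtered with filterByExpr (14537 genes left) and tested with edgeR 4.0.16 (quasi-likelihood test, TMM, Benjamini-Hochberg adjustment over all 14537 genes, threshold 0.05) under R 4.3.3. Intervals of log2 fold changes use the standard error of edgeR's test, in which spread is shared between genes. Their t value has 4 degrees of freedom, fewer than the test uses, so they can reach 0 where edgeR made a call. Family shares were compared by exact permutation tests. The scripts were tested on simulated data. The depths gave a median standard error of 0.05 on the log2 scale for the members.

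The members and lists were chosen with earlier results of these data known. Values in every library are given for PELP1, for the cell cycle core and, among called members without overlap whose higher group averaged 100 or more normalized reads, for the 8 with the largest log2 fold change in each direction. Other members are named with their role. Of each other list, the genes named are among the 3 called genes with the smallest p in each direction. Some items are not reported here.

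The replicate numbers are shared by the groups. Over 6370 genes, deviations of same-numbered libraries from their group means correlated at 0.34, 0.25 and 0.67. Replicate 2 of control correlated more with replicate 1 of PELP1-KD (0.42). Replicate 2 of PELP1-KD correlated about equally with replicates 1 (0.244) and 2 (0.247) of control. These values thus set only replicate 3 apart and do not settle the other pairs. The main fit did not use the numbers, which pair the libraries only in the replicate block. The labels do not say what a number stands for. DESeq2 1.42.0, other scalings, filters and rounding, a replicate block and leaving out each library were tried as alternatives. Promoters came from a RefSeq table of GRCh38.p14, and hg19 positions from the deposited tables.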

Additional observations from a re-analysis of the deposited data

How the results depend on the processing

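Of the members tested as reported, 30 to 34 were called under the other scalings, filters, rounding and DESeq2, 38 with a replicate block and 27 to 34 when a library was left out, beside 34 as reported. The share called of all genes with an adjusted p ranged from 41.7% (DESeq2) to 60.7% (replicate block) over these settings. With no filter on low counts CCNA1 was called lower as well. At an adjusted p below 0.01, 8 members were higher and 18 lower, where 20.5% of all genes were higher and 21.0% lower. No called member changed sign under any of these. When genes under 1 RPKM in both groups were dropped, 595 of all genes rather than 1112, and 1 member rather than 3, were called with at least a 2-fold change, since this setting drops CCND2 and CDK20. DESeq2 called 30 members and lost CDC25C, CDKN3, CDK5 and CDK14, and CDC25C was also lost under both other scalings and with at least 10 reads in every library. The pairing of the libraries as a replicate block called 38 members, with CDKN1B, PKMYT1, CDK7 and CCNG1 added and no other call changed among the members, and it gave PELP1 a log2 fold change of −0.083 (adjusted p = 0.0106). Without 1 library, PELP1 lay between −0.105 and −0.040, and it was called only without replicate 3 of PELP1-KD (adjusted p = 0.0180). The causes of these changes of call were not tested. Depth limits what can be said of CCNA1, CDK15, CCND2, CDK20 and CCNI2, and the adjusted p values of CDC25C, CDKN3, CDK5, CDK14 and CDK16 lie near the threshold.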
